A study of Mus musculus with 6 samples.

Results

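The genes described here are the protein-coding genes of oxidative phosphorylation (OXPHOS) in neutrophils sorted from mouse peripheral blood (PB). They were chosen by name alone: symbols that begin with mt-, Nduf, Sdh, Uqcr, Cox4, Cox5, Cox6, Cox7, Cox8 or Atp5, on rows typed as protein coding. Of 29097 genes listed, 109 met the rule, and 103 of them reached the mean level of 1 FPKM (fragments scaled to gene length and library total) that was needed for testing. The 109 comprised 13 genes encoded in mitochondrial DNA (mt- genes), 76 genes for nuclear-encoded subunits of complexes I to V and 12 genes for assembly factors of complexes I and II. The other 8 were 5 tissue isoforms of complex IV subunits, 2 genes whose symbols mark them as pseudogenes, and Cox7a2l, a factor that joins complexes III and IV into supercomplexes.

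All mice were male C57BL/6 animals, 8 weeks old. In the Lig group, silk ligatures were tied around the second molars of both jaws for 14 d to induce periodontitis, and Ctrl mice received none. CD45+CD11b+Ly6G+ cells were sorted after lysis of red blood cells, and cells of 5 mice were pooled for each library. There were 3 Smart-seq2 libraries per group, and the comparison asks how PB neutrophils differ between mice with and without periodontitis. Because every library is a pool, the spread between libraries is a spread between pools and not between single mice.

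Most ATP of a resting cell is made by 5 protein complexes in the inner mitochondrial membrane. Complexes I, III and IV pump protons while they pass electrons to oxygen, complex II feeds in electrons from succinate without pumping, and complex V (ATP synthase) uses the returning protons to make ATP. Complexes I, III, IV and V are built from subunits of both genomes, whereas complex II is encoded by the nucleus alone. Mitochondrial DNA is transcribed into long RNAs that are cut into messengers, rRNAs and tRNAs. Neutrophils are known for few mitochondria and a strong reliance on glycolysis.

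The libraries held 52186555 to 57262379 counts. Fold changes come from edgeR's quasi-likelihood test on counts with TMM scaling, and levels per library are TMM-normalized counts scaled to library size (CPM). Of 10440 genes tested, 27.2% were called lower and 26.5% higher in Lig at an adjusted p under 0.05, and over all of them the median log2 fold change stood at -0.095. All 16 neutrophil markers were detected and all were higher in Lig, with a summed level of 14890 to 17160 CPM in Ctrl and 55750 to 60120 CPM in Lig. Markers of other blood cells also differed. All 10 erythroid markers were lower (130000 to 138400 CPM against 17620 to 18370 CPM), as were all 12 B cell markers (18730 to 20830 CPM against 3870 to 3891 CPM) and all 14 T cell markers (1033 to 1155 CPM against 228 to 262 CPM). All 10 platelet markers were higher (1038 to 1265 CPM against 2626 to 3154 CPM). Of 6 NK cell markers 3 were higher (255 to 322 CPM against 346 to 374 CPM), and of 6 monocyte and dendritic cell markers tested 4 were higher and 1 lower (351 to 442 CPM against 807 to 866 CPM). Of 5 tested eosinophil and basophil markers 1 was higher (15.5 to 25.6 CPM against 38.5 to 49.1 CPM), and neither of the 2 granulocyte precursor markers tested was called by edgeR, at an unadjusted p under 0.05 or by DESeq2, while limma on log2(FPKM + 1) called 1 lower (18.5 to 21.8 CPM against 13.6 to 20 CPM). No listed marker was at 0 in all libraries. The part of these cells in the OXPHOS values below was not tested, and fewer cells of a type and less RNA per cell cannot be told apart in these pools.

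The mt- genes lie close together on the mitochondrial chromosome, and some share bases, which limits how far their counts are separate. The stretch where the genes for both mitochondrial ATP synthase subunits overlap is shown because reads inside it can belong to either gene. mt-Atp8 spans MT:7766-7969 and mt-Atp6 spans MT:7927-8607 (GRCm38, plus strand), so that 43 bases, in capitals, are exonic and coding in both. The genes for the complex I subunits mt-Nd4l and mt-Nd4 share 7 bases, also in capitals. Both lines start 20 bases before the shared bases and end 20 bases after them.
mt-Atp8 and mt-Atp6, MT:7907-7989: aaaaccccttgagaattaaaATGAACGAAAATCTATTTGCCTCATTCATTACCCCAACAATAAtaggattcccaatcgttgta
mt-Nd4l and mt-Nd4, MT:10147-10193: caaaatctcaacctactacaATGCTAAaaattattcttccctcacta

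All 13 mt- messengers were lower in Lig, beside 27.2% of all genes tested. Their log2 fold changes ran from -1.81 (mt-Nd1) to -1.13 (mt-Nd4), and their median was -1.46, or -1.37 relative to the median of all genes. All 13 were lower without overlap between the groups, beside 33.1% of all genes tested. None was higher by edgeR, at an unadjusted p under 0.05, by DESeq2 or by limma. Together the 13 took 1.37%, 1.60% and 1.43% of all counts in the Ctrl libraries and 0.442%, 0.485% and 0.399% in the Lig libraries.

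Among the 7 complex I messengers, mt-Nd1, for a membrane subunit near the quinone site, stood at 968, 1249 and 1101 CPM in Ctrl and at 326, 342 and 279 CPM in Lig. The highest Lig library was well under the lowest Ctrl library, and the log2 fold change was -1.81 (SE 0.12, adjusted p = 9.62e-07). mt-Nd4, for a proton-pumping subunit, stood at 739, 751 and 688 CPM in Ctrl and at 328, 362 and 305 CPM in Lig, again with no overlap. It had the smallest decrease of the 13 messengers, with a log2 fold change of -1.13 (SE 0.10, adjusted p = 5.14e-06). mt-Nd6, for another membrane subunit, is encoded on the other strand from the remaining 12 and overlaps the end of mt-Nd5. The use of strand in counting is not given in the sources used here, so reads in their overlap cannot be told apart. It stood at 158, 173 and 166 CPM in Ctrl and at 60, 59.9 and 60.2 CPM in Lig, a log2 fold change of -1.46 (SE 0.11, adjusted p = 2.01e-06). The log2 fold change of mt-Nd5, for a proton-pumping subunit, was -1.34 (SE 0.10). mt-Nd3 had the lowest counts of the 13, with 9.15, 15.6 and 15.4 CPM in Ctrl and 4.92, 5.12 and 4.89 CPM in Lig. Its groups did not overlap either, although 1 Ctrl library lay well under the other 2, and its log2 fold change was -1.43 (SE 0.30, adjusted p = 0.0026). The log2 fold changes of mt-Nd2 and mt-Nd4l, for further membrane subunits, were -1.49 and -1.53.

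Complex III has 1 mitochondrial subunit, cytochrome b. Its messenger mt-Cytb stood at 2012, 2298 and 1997 CPM in Ctrl and at 805, 789 and 659 CPM in Lig, with a log2 fold change of -1.48 (SE 0.10, adjusted p = 1.19e-06). Complex IV takes its catalytic core from 3 mitochondrial genes. mt-Co1, for the subunit that holds the oxygen-reducing centre, stood at 3255, 4188 and 3910 CPM in Ctrl and at 1516, 1812 and 1285 CPM in Lig. It had the highest counts of all members in every library, and its log2 fold change was -1.30 (SE 0.13, adjusted p = 1.58e-05). mt-Co2, for the subunit that accepts electrons from cytochrome c, changed by -1.29 (SE 0.10) and mt-Co3 by -1.49 (SE 0.13). For complex V, mt-Atp6, whose product forms the proton channel beside the c-ring, stood at 1823, 1981 and 1580 CPM in Ctrl and at 635, 705 and 587 CPM in Lig. Its log2 fold change was -1.48 (SE 0.11, adjusted p = 1.65e-06), and that of mt-Atp8 was -1.38 (SE 0.12). Every Lig library was under every Ctrl library for each of these genes.

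**Figure D1:**
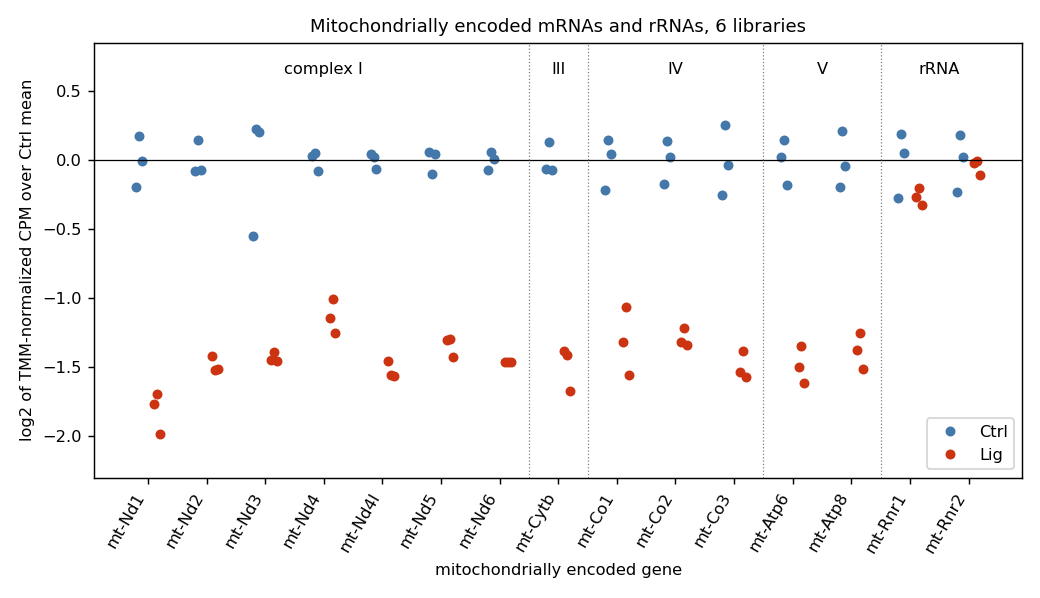
Log2 of the TMM-normalized CPM of each library over the Ctrl mean (y axis) for the 13 mt- messengers, ordered by complex, and the 2 mt- rRNAs (x axis), with 1 point per library. The Lig points of all 13 messengers lie under all Ctrl points, whereas for both rRNAs the Lig and Ctrl points overlap.

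The 2 rRNAs of the mitochondrial ribosome, which are made from the same DNA, were not called. mt-Rnr1 stood at 2699, 3715 and 3379 CPM in Ctrl and at 2706, 2833 and 2600 CPM in Lig, and mt-Rnr2 at 15150, 20220 and 18040 CPM in Ctrl and at 17540, 17670 and 16510 CPM in Lig. The groups overlapped for both. Their log2 fold changes were -0.27 (SE 0.11, adjusted p = 0.0558) and -0.05 (SE 0.09, adjusted p = 0.684). With library totals both were called lower, at -0.59 and -0.37, where the median of all genes was -0.42 and that of the mt- messengers -1.78. Both were also called lower with limma, with scaling to neutrophil genes and among genes with a mean of at least 5 FPKM, and mt-Rnr1 without Ctrl replicate 1 (-0.38) and with the replicate number as a block (-0.26, adjusted p = 0.0411). Neither was called by DESeq2, and at an unadjusted p under 0.05 edgeR placed mt-Rnr1 lower. Within each library, the summed count of the mt- messengers over that of the rRNAs was 0.676, 0.605 and 0.600 in Ctrl and 0.245, 0.266 and 0.231 in Lig, so that the ratio was 2.54-fold lower in Lig with no overlap. This ratio needs no scaling between libraries. It was added after the data had been seen, and it is given without a test because 3 libraries against 3 cannot reach an exact permutation p under 0.1. Of the 22 mt- tRNA genes, 17 reached the level for testing, 8 were lower, beside 27.2% of all genes, and none was higher, at an unadjusted p under 0.05, by DESeq2 and by limma too. The count of lower tRNA genes was 5 without Ctrl replicate 2 (beside 2385 of 10440 genes) and 4 without Ctrl replicate 3 (beside 2255). It was 5 by DESeq2 (beside 2817). With filterByExpr (edgeR's own filter on counts) it was 2 of 17 (beside 2688 of 16402 genes), and with no filter 2 of 22 (beside 2184 of 29097). It rose to 13 with library totals (beside 4146 of 10440 genes) and to 15 with limma on log2(FPKM + 1) (beside 4249). Some calls rest on few reads, as for mt-Tt with 58, 36 and 31 counts in Ctrl and 7, 19 and 6 in Lig. mt-Ts1, the one with the highest counts, stood at 34.9, 42.0 and 42.7 CPM in Ctrl and at 19.2, 21.8 and 17.4 CPM in Lig. mt-Ts1 (MT:6870-6938) overlaps the end of mt-Co1 (MT:5328-6872) on the opposite strand, so reads in their overlap cannot be told apart without strand. Among the lower tRNA genes, mt-Ta, mt-Tn, mt-Tc, mt-Ty, mt-Ts1 and mt-Te lie on the minus strand, opposite to all mt- messengers but mt-Nd6. The strand of their reads is not known either. Priming was by oligo(dT), and whether reads on tRNA genes come from cut tRNAs or from uncut RNA was not tested.

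Levels of different genes were compared per length, in FPKM, which the authors scaled to library totals. In Ctrl, mt-Atp6 (2717 ± 295 FPKM, SD, n = 3), mt-Atp8 (2705 ± 349) and mt-Co1 (2523 ± 280) led all members and lay within their spread of each other. The same 3 led in Lig, where mt-Atp8 stood at 844 ± 76.1 FPKM, mt-Co1 at 829 ± 143 FPKM and mt-Atp6 at 786 ± 73.3 FPKM, again within their spread. The median over the 13 mt- messengers was 1123 FPKM in Ctrl and 275 FPKM in Lig, and over the 76 nuclear subunit genes it was 33.0 FPKM in Ctrl and 22.6 FPKM in Lig. The most abundant nuclear subunit gene in Ctrl was Cox6a1 (327 ± 28.2 FPKM), the broadly expressed form of complex IV subunit 6A, and 11 of the 13 mt- messengers had higher means. Of these, mt-Nd6 (329 ± 9.73 FPKM) and mt-Nd2 (329 ± 24.9 FPKM) were within the spread of Cox6a1. In Lig Cox8a (263 ± 23.0 FPKM) had the highest mean, with Cox6a1 (257 ± 7.08 FPKM) within its spread, and 7 of the 13 had higher means, with mt-Nd1 (275 ± 27.9 FPKM) within the spread of Cox8a. mt-Nd3 was the lowest mt- messenger in both groups, at 39.6 FPKM in Ctrl and 11.9 FPKM in Lig.

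**Figure D2:**
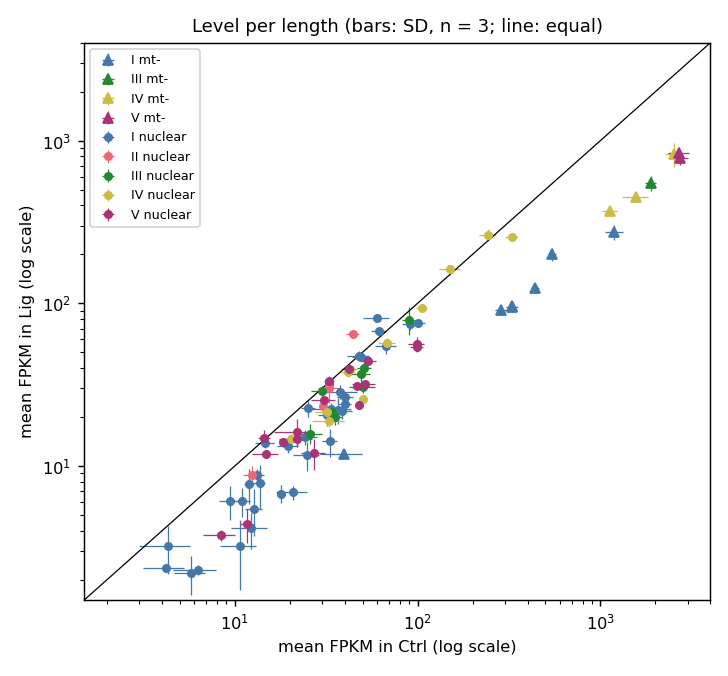
Mean FPKM in Lig (y axis, log scale) against mean FPKM in Ctrl (x axis, log scale) for 13 mt- messengers (triangles) and 75 nuclear subunit genes (circles), coloured by complex, with SD bars (n = 3) and a line of equal values. All triangles lie well below the line, whereas the circles of complex IV with the highest levels, among them Cox8a and Cox6b1, lie near it.

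The count of mt- messengers over that of nuclear subunits was then set within each library, which also needs no scaling. Over all subunits the ratio was 2.65, 2.61 and 2.62 in Ctrl and 1.10, 1.15 and 0.969 in Lig. The groups lay far apart, and the ratio was 2.45-fold lower in Lig (log2 difference -1.29, SD between libraries 0.01 in Ctrl and 0.13 in Lig). Each mixed complex showed a lower ratio without overlap. In complex I it was 2.17, 1.92 and 2.03 in Ctrl and 0.862, 0.844 and 0.787 in Lig, in complex III 4.34, 4.12 and 4.35 against 1.93, 1.73 and 1.54. In complex IV it was 5.17, 5.53 and 5.58 in Ctrl and 1.95, 2.32 and 1.79 in Lig, and in complex V 1.48, 1.38 and 1.25 against 0.607, 0.633 and 0.544. The log2 differences of the 4 complexes ran from -1.43 (complex IV) to -1.20 (complex V), and whether they differ from each other was not tested. By contrast, the rRNA count over the nuclear subunit count was 3.92, 4.31 and 4.36 in Ctrl and 4.49, 4.33 and 4.201 in Lig, with overlapping groups.

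**Figure D3:**
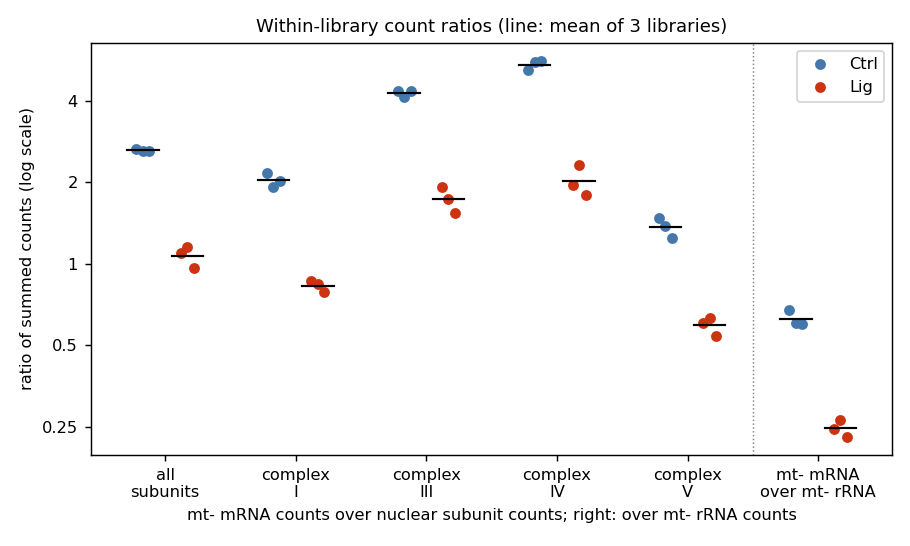
Ratio of summed counts within each library (y axis, log scale) for mt- messengers over nuclear subunits, in all and by complex, and for mt- messengers over mt- rRNAs (x axis), with 1 point per library and a line at the mean of 3 libraries. Every Lig point lies under every Ctrl point of the same ratio.

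The nuclear subunit genes did not move as one. Of 76, 22 were lower (28.95%, beside 27.2% of all genes), 7 were higher (9.21%, beside 26.5% of all genes) and 47 were not called. The share that was lower was near that of all genes. Their median log2 fold change was -0.25, or -0.16 relative to that of all genes, and the latter was -0.04 without Ctrl replicate 2 and turned to 0.03 with no filter on low values. The split of calls depends on the scaling. With library totals 47 were lower and 2 higher, beside 4146 and 1919 of all 10440 genes tested. With limma on log2(FPKM + 1) the counts were 50 and 2, beside 4249 and 2010. With neutrophil genes as the reference they were 76 and 0, beside 8914 and 113, and the median of all genes itself was -1.76. All 13 mt- messengers were lower under each of these, but under the last setting so were most genes.

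**Figure D4:**
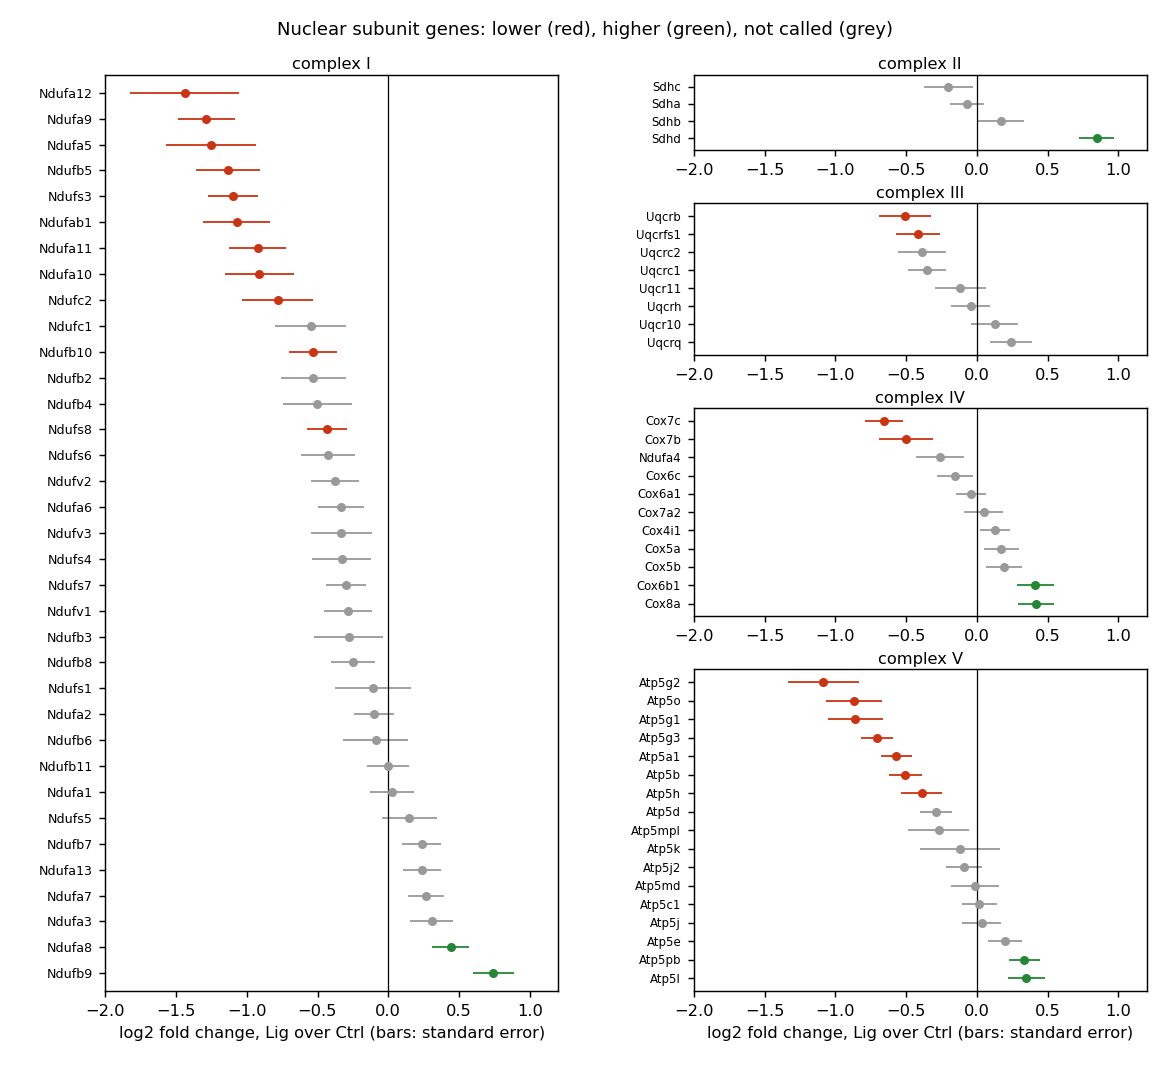
Log2 fold change of Lig over Ctrl (x axis, bars are standard errors) for 75 nuclear subunit genes (y axis), in 1 panel per complex, coloured by the call at an adjusted p under 0.05. Complex I holds 11 lower and 2 higher genes and complex V 7 lower and 2 higher genes, whereas complex IV holds 2 of each and complex II holds 1 higher gene alone. With scaling to neutrophil genes the higher genes turn lower.

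In complex I, 11 of 36 nuclear genes were lower (30.56%, beside 27.2% of all genes) and 2 higher (5.56%, beside 26.5%), and their median log2 fold change was -0.33. Of the 7 core subunits, which bacteria share, Ndufs3 and Ndufs8 were lower and the other 5 were not called. Ndufs3 stood at 36.6, 40.5 and 36.4 CPM in Ctrl and at 16.4, 20.2 and 16.5 CPM in Lig. The groups were well separated, and the log2 fold change was -1.10 (SE 0.18, adjusted p = 0.000476). Its exons overlap those of Kbtbd4 on the opposite strand. Ndufs8 had a log2 fold change of -0.43 (SE 0.14, adjusted p = 0.0273) and lost its call in 4 of the 6 fits that left out 1 library, which ran from -0.49 to -0.34. The other 29 genes encode accessory subunits, of which 9 were lower and 2 higher. Ndufa12, an accessory subunit of the arm that reaches into the matrix, stood at 12.9, 20.6 and 15.7 CPM in Ctrl and at 2.85, 7.65 and 7.63 CPM in Lig. Its Lig libraries differed among themselves, yet all were under the Ctrl libraries, and its log2 fold change of -1.44 (SE 0.39, adjusted p = 0.00971) was the lowest of the nuclear subunit genes. Ndufa9, which sits at the quinone site, stood at 35.1, 52.6 and 39.9 CPM in Ctrl and at 18.6, 18.4 and 15.4 CPM in Lig. The groups did not overlap, with a log2 fold change of -1.29 (SE 0.20, adjusted p = 0.000366). Ndufb9, an accessory subunit of the membrane arm, went the other way, with 49.8, 71.4 and 60.2 CPM in Ctrl and 104, 103 and 97.0 CPM in Lig. All Lig libraries were above all Ctrl libraries, with a log2 fold change of 0.74 (SE 0.15, adjusted p = 0.00165). Ndufa8, which also belongs to the membrane arm, had a log2 fold change of 0.44 (SE 0.13, adjusted p = 0.0152), and its call was lost with library totals, without Ctrl replicate 3 (0.40) and without Lig replicate 2 (0.43). Ndufa2 had the highest mean per length of complex I over the 6 libraries, at 100 ± 10.4 FPKM in Ctrl and 75.4 ± 3.73 FPKM in Lig. In Ctrl Ndufa1 (90.8 ± 8.30 FPKM) lay within its spread, and in Lig Ndufb9 (81.7 ± 2.73 FPKM) had a higher mean. The Ndufa2 log2 fold change of -0.10 (SE 0.14) did not pass the test.

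Complex II, which also acts in the TCA cycle, had 1 higher gene among 4 (25%, beside 26.5% of all genes) and no lower gene by edgeR, at an unadjusted p under 0.05 or by DESeq2, while limma on log2(FPKM + 1) called 2 lower. Sdhd, for 1 of its 2 membrane anchors, stood at 50.2, 50.7 and 58.1 CPM in Ctrl and at 98.4, 98.9 and 89.3 CPM in Lig. The Lig libraries were all far above the Ctrl libraries, and the log2 fold change of 0.85 (SE 0.12, adjusted p = 0.000234) was the highest of all members. It was higher in all 6 fits that left out 1 library and with library totals, and it turned to -0.81 with scaling to neutrophil genes. The flavoprotein gene Sdha stood at 122, 119 and 123 CPM in Ctrl and at 101, 122 and 125 CPM in Lig, with overlapping groups and a log2 fold change of -0.07 (SE 0.12). The iron-sulfur subunit gene Sdhb and the other anchor gene Sdhc overlapped too, with log2 fold changes of 0.17 (SE 0.16) and -0.20 (SE 0.17), and neither passed the test.

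In complex III, 2 of 8 nuclear genes were lower (25%, beside 27.2% of all genes), with a median of -0.23, and none was higher by edgeR, at an unadjusted p under 0.05, by DESeq2 or by limma. Uqcrfs1, the Rieske iron-sulfur protein, stood at 62.6, 79.6 and 57.7 CPM in Ctrl and at 52.6, 45.4 and 52.1 CPM in Lig. The gap between the groups was small, and the log2 fold change was -0.41 (SE 0.15, adjusted p = 0.0427). Uqcrb, a small subunit near the quinone site, had a log2 fold change of -0.51 (SE 0.19, adjusted p = 0.0398). Both calls were lost with median-of-ratios size factors and in 5 of the 6 fits that left out 1 library, and that of Uqcrfs1 was lost by DESeq2 too. Uqcrb ran from -0.60 to -0.39 over these fits and kept its call without Lig replicate 1, and Uqcrfs1 ran from -0.51 to -0.25 and kept it without Ctrl replicate 3. Uqcr10, the most abundant per length at 89.7 ± 7.57 FPKM in Ctrl and 79.2 ± 15.5 FPKM in Lig, and Uqcrq had log2 fold changes of 0.13 (SE 0.17) and 0.24 (SE 0.15), and neither passed the test, although Uqcrq was called higher without Ctrl replicate 2 (0.39).

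Complex IV had 2 lower and 2 higher genes among 11 nuclear genes (18.2% each way, beside 27.2% lower and 26.5% higher of all genes), with a median of 0.05. Cox7c, a small subunit, stood at 52.9, 59.0 and 54.6 CPM in Ctrl and at 36.5, 34.8 and 34.2 CPM in Lig, tight and apart in both groups. Its log2 fold change was -0.66 (SE 0.13, adjusted p = 0.00211). Cox7b, another small subunit, had a log2 fold change of -0.50 (SE 0.19, adjusted p = 0.0451) and lost its call with median-of-ratios size factors and in 4 of the 6 fits that left out 1 library, which ran from -0.61 to -0.29. Cox8a, a small membrane subunit, stood at 125, 158 and 155 CPM in Ctrl and at 216, 187 and 183 CPM in Lig, with all Lig libraries above all Ctrl libraries. Its log2 fold change was 0.42 (SE 0.13, adjusted p = 0.0172), and the call was lost without Ctrl replicate 1 (0.33) and without Lig replicate 1 (0.34). Cox6b1, which joins both copies of the complex IV dimer, had a log2 fold change of 0.41 (SE 0.13, adjusted p = 0.022) and lost its call in 4 of the 6 fits that left out 1 library, which ran from 0.31 to 0.54. With library totals neither Cox8a nor Cox6b1 was called, and with scaling to neutrophil genes both were lower. Cox6a1 stood at 198, 241 and 230 CPM in Ctrl and at 213, 214 and 223 CPM in Lig, with overlapping groups and a log2 fold change of -0.04 (SE 0.11). Cox4i1, an early subunit that holds a regulatory nucleotide site, had a log2 fold change of 0.13 (SE 0.11), Cox7a2 one of 0.05 (SE 0.14) and Ndufa4 one of -0.26 (SE 0.17), and none of the 3 passed the test.

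The isoforms of complex IV that are typical of other tissues were scarce. Cox4i2 and Cox8c each had 8 counts in 1 Lig library and 0 in the other 5 libraries, and Cox7a1 and Cox6a2 also stayed under the level for testing. Cox6b2, the testis form of subunit 6B, was tested at 4.75, 6.55 and 3.62 CPM in Ctrl and 4.02, 4.12 and 3.11 CPM in Lig, with overlapping groups and a log2 fold change of -0.41 (SE 0.37). Cox7a2l, the supercomplex factor, stood at 86.5, 118 and 92.5 CPM in Ctrl and at 63.9, 76.5 and 65.7 CPM in Lig. Its groups did not overlap, and the log2 fold change was -0.53 (SE 0.15, adjusted p = 0.0122).

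In complex V, 7 of 17 nuclear genes were lower (41.2%, beside 27.2% of all genes) and 2 higher (11.8%, beside 26.5%), with a median of -0.27. The 3 genes Atp5g1, Atp5g2 and Atp5g3 encode the same mature subunit c, which forms the rotating ring in the membrane, and all 3 were lower. Atp5g3, the most abundant of them per length (48.0 FPKM in Ctrl and 23.8 FPKM in Lig), stood at 101, 102 and 102 CPM in Ctrl and at 64.4, 60.7 and 61.8 CPM in Lig. The libraries within each group were close and the groups far apart, with a log2 fold change of -0.71 (SE 0.11, adjusted p = 0.000394). Atp5g2 stood at 17.5, 20.95 and 18.4 CPM in Ctrl and at 8.22, 11.3 and 7.29 CPM in Lig, a log2 fold change of -1.09 (SE 0.25, adjusted p = 0.00427). The log2 fold change of Atp5g1 was -0.86 (SE 0.20, adjusted p = 0.00415). All 3 were lower in every fit that left out 1 library.

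The catalytic head of complex V is built mainly from the alpha and beta subunits. Atp5b, for the beta subunit, stood at 377, 462 and 383 CPM in Ctrl and at 261, 283 and 317 CPM in Lig, and Atp5a1, for the alpha subunit, at 288, 335 and 282 CPM in Ctrl and at 199, 219 and 192 CPM in Lig. Neither overlapped between groups. Their log2 fold changes were -0.51 (SE 0.12, adjusted p = 0.00418) and -0.57 (SE 0.11, adjusted p = 0.00147), while the central stalk genes Atp5c1, Atp5d and Atp5e were not called. Of the 4 genes of the peripheral stalk, Atp5o and Atp5h were lower, Atp5pb was higher and Atp5j was not called. Atp5o, which ties the stalk to the head, stood at 43.1, 59.7 and 53.0 CPM in Ctrl and at 30.4, 33.4 and 21.5 CPM in Lig, with a log2 fold change of -0.87 (SE 0.20, adjusted p = 0.00425). Atp5h, for stalk subunit d, had a log2 fold change of -0.39 (SE 0.15, adjusted p = 0.0428) and kept its call in 1 of the 6 fits that left out 1 library, without Ctrl replicate 1 (-0.51), over a range that ended at -0.31. It was not called by DESeq2 or with median-of-ratios size factors. Atp5pb, for stalk subunit b, had a log2 fold change of 0.33 (SE 0.11, adjusted p = 0.0257), and Atp5l, for the small membrane subunit g, one of 0.35 (SE 0.13, adjusted p = 0.0425). Both lost their calls with library totals and were lower with scaling to neutrophil genes. Each kept its call in 2 of the 6 fits that left out 1 library, over ranges of 0.30 to 0.42 and 0.25 to 0.43. Atp5pb also overlaps Wdr77 on the opposite strand. None of the other 4 small membrane subunit genes was called.

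Of the 10 assembly factor genes tested, 6 were lower (beside 27.2% of all genes) and 2 higher (beside 26.5%). Of the 6, Ndufaf4 and Sdhaf1 were lower in every fit that left out 1 library. The count was 3 without Ctrl replicate 2 (beside 2385 of 10440 genes), where Ndufaf1, Ndufaf5 and Ndufaf8 lost their calls. It was also 3 without Ctrl replicate 3 (beside 2255), where Ndufaf1, Ndufaf8 and Sdhaf4 lost theirs. The count of lower genes was 4 of 12 with filterByExpr (beside 2688 of 16402 genes) and 2 of 12 with no filter (beside 2184 of 29097 genes). It was 7 of 10 with limma on log2(FPKM + 1) (beside 4249 of 10440 genes). With library totals no assembly factor was higher (beside 1919 of 10440 genes). Ndufaf4, which acts early in complex I assembly, stood at 11.9, 15.9 and 15.5 CPM in Ctrl and at 5.08, 2.43 and 4.003 CPM in Lig. The groups were far apart, and its log2 fold change of -1.91 (SE 0.34, adjusted p = 0.000837) was the lowest of all members. Its Lig mean of 0.81 FPKM was under the level for testing, which Ndufaf4 reached through Ctrl (3.80 FPKM). The same holds for Ndufaf5, another of the 6, with means of 3.37 FPKM in Ctrl and 0.89 FPKM in Lig. Ndufaf7, a methyltransferase that acts in complex I assembly, stood at 14.0, 15.3 and 18.6 CPM in Ctrl and at 25.5, 30.5 and 26.8 CPM in Lig, with no overlap. Its log2 fold change was 0.79 (SE 0.20, adjusted p = 0.00715). It was not called with library totals and was lower with scaling to neutrophil genes, at -0.87.

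Nuclear OXPHOS genes are known for promoters with sites for NRF1 and for factors of the ETS family. The windows from 250 bases before to 50 bases after the gene start were taken from RefSeq (GRCm38.p6) and matched by symbol for 64 of the 76 nuclear subunit genes. The NRF1 motif GCGCANGCG, searched on both strands, was present for 20 of the 64 (31.2%) and for 7.03% of the 27025 genes with a window. The ETS motif CCGGAAG was present for 17 (26.6%, beside 9.93% of all) and the YY1 motif AAGATGGC for 10 (15.6%, beside 3.19%), both searched likewise. The NRF1 motif was present for 7 of 20 lower genes, 3 of 6 higher genes and 10 of 38 genes that were not called, so genes with it lay in every class. The ETS motif was present for 3 of 20 lower genes, 4 of 6 higher genes (Atp5l, Cox6b1, Cox8a and Sdhd) and 10 of 38 others. A match is a description of letters and not of binding. The NRF1 matches of Ndufa11 and Ndufa5, which were lower, and of Sdhd and Atp5l, which were higher, are shown with up to 20 bases on either side because these genes moved in opposite directions. Capitals mark the motif or its reverse complement CGCNTGCGC, and each run lies before a RefSeq start of its gene and on its strand. Ndufa5 has another RefSeq start, 26 bases after the start of its motif, and the last bases of its run lie past that start.
Ndufa11, chr17:56717682-56717730, plus strand: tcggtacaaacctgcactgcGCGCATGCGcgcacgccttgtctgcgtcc
Ndufa5, chr6:24527688-24527736, minus strand: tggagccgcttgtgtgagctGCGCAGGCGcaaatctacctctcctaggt
Sdhd, chr9:50603900-50603948, minus strand: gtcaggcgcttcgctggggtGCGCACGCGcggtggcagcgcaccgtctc
Atp5l, chr9:44920955-44920992, minus strand: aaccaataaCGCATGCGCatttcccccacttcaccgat

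Related lists of nuclear genes outside the name rule were set beside the members. Of 19 tested genes for the upkeep and transcription of mitochondrial DNA and the handling of its RNA, 12 were lower (beside 27.2% of all genes), with a median of -0.80, and none was higher by edgeR, at an unadjusted p under 0.05, by DESeq2 or by limma. Tfam, which packs mitochondrial DNA and is needed to start its transcription, had the lowest value. It stood at 29.9, 24.8 and 23.8 CPM in Ctrl and at 8.10, 10.8 and 7.31 CPM in Lig, with the groups far apart and a log2 fold change of -1.58 (SE 0.24, adjusted p = 0.000272). The highest of this list was Mterf1a at 0.25 (SE 0.36), which did not pass the test. Without Ctrl replicate 3 the count of lower genes was 7 (beside 2255 of 10440 genes). It was 8 of 28 with filterByExpr (beside 2688 of 16402 genes) and with no filter (beside 2184 of 29097 genes). With library totals it was 14 of 19 (beside 4146 of 10440 genes). The list lay near the level for testing, with a median of 2.17 FPKM in Ctrl and 1.15 FPKM in Lig. Of its genes 2 reached a mean of 5 FPKM, and 1 of these was lower.

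Of 7 tested regulators of OXPHOS gene transcription, 1 was lower and 2 were higher, beside 27.2% lower and 26.5% higher of all genes. Pprc1, a coactivator related to PGC-1, stood at 19.9, 7.48 and 20.3 CPM in Ctrl and at 0.677, 2 and 5.78 CPM in Lig. Its libraries varied widely in both groups, but these did not overlap, with a log2 fold change of -2.50 (SE 0.67, adjusted p = 0.00985). Nfe2l2, which drives antioxidant genes, had the highest, 1.43 (SE 0.09, adjusted p = 8.64e-07), and turned to -0.23 with scaling to neutrophil genes. Of 29 tested assembly factors outside the name rule, 10 were lower (34.5%, beside 27.2% of all genes) and 5 higher (17.2%, beside 26.5%), from Coa7 at -1.91 (SE 0.37) to Coa4 at 1.64 (SE 0.36). Of 17 genes of the TCA cycle, 9 were lower (52.9%, beside 27.2%) and 1 higher (5.88%, beside 26.5%), from Suclg2 at -1.38 (SE 0.38) to Mdh2 at 0.37 (SE 0.10). Of 6 tested electron carriers and further subunits, 3 were lower (beside 27.2%), and none was higher by any of the tools or at an unadjusted p under 0.05. They ran from Dhodh at -1.52 (SE 0.47) to Etfdh at 0.0026 (SE 0.22), the latter not called. Dhodh lost its call without Ctrl replicate 3, and Mdh2 lost its call without Ctrl replicate 3, without Lig replicate 1 and with library totals. Coa4 and Mdh2 also turned negative with scaling to neutrophil genes. Pprc1, Coa7, Suclg2 and Dhodh had Lig means under the level for testing (0.37, 0.89, 0.93 and 0.50 FPKM). They reached it through Ctrl (2.61, 4.14, 2.99 and 1.78 FPKM).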

How the data were processed

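Per the labels and the study's methods, total RNA of each pool of sorted neutrophils was reverse transcribed from an oligo(dT) primer, amplified by PCR and sequenced in pairs, and no molecular identifiers are named. The submitters' processing notes name cutadapt 1.9, FastQC and GRCm38. The aligner, the counter, their settings and the use of strand are not given in the sources used here. For every gene the authors deposited the read count, not normalized, and an FPKM value, scaled to gene length and library total. Nothing in the sources says that same-numbered libraries share mice, and p-values measure the spread between pools.

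Counts were fitted with edgeR 4.0.16 (R 4.3.3) by the quasi-likelihood test with TMM normalization for the 10440 genes whose FPKM averaged 1 or more, with Benjamini-Hochberg adjustment over all of them. A gene was called at an adjusted p under 0.05. Standard errors (SE) are the absolute log2 fold change over the root of the F statistic. Alternatives used DESeq2 1.42.0 and limma 3.58.1. On simulated counts for 10440 genes with 200 changed, 64.5% were recovered, with 5.84% false among 137 calls. The simulation changed few genes, whereas 27.2% of genes were called lower and 26.5% higher in the data. It therefore does not measure the error of the calls reported here.

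Members followed the name rule. They, the gene lists, the division of complexes by role and the tests were chosen with earlier results of these data known. The genes named are all mt- genes and complex II genes, the most abundant and the 2 highest and 2 lowest nuclear members of each complex by log2 fold change, isoform groups, and the highest and lowest of each further list. Ndufs3, Ndufs8, Atp5a1, Atp5h, Ndufa1, the assembly factors other than Ndufaf4 and Ndufaf7 and the mt- rRNAs and tRNA are described in addition, chosen after their values were seen. Ndufa4 was counted in complex IV. The values of 1 nuclear subunit gene are not reported here singly, but it is included in counts and medians. Of the 109 members, 95 have identical coordinates in GENCODE M21, and 27 have exons that overlap another expressed gene, so that their reads are uncertain there. Members with near-identical pseudogenes are uncertain too. Chi-square per gene between libraries of one group was 52.2 to 126, above sampling noise, so no library was merged with another.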

Additional observations from a re-analysis of the deposited data

How the results depend on the processing

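All 13 mt- messengers were lower under every alternative run. The counts of lower and higher nuclear subunit genes, 22 and 7, were 47 and 2 with library totals, 50 and 2 with limma on log2(FPKM + 1) and on log2(FPKM + 0.1), 34 and 2 with genes of a mean of at least 5 FPKM, 13 and 4 with no filter, and 76 and 0 with scaling to neutrophil genes. Over all 10440 genes tested the counts were 4146 and 1919 with library totals and 8914 and 113 with neutrophil genes. With limma they were 4249 and 2010 on log2(FPKM + 1) and 4144 and 1974 on log2(FPKM + 0.1). They were 1869 and 1768 of 5328 genes with a mean of at least 5 FPKM, and 2184 and 2430 of 29097 with no filter. Library totals and neutrophil genes change the scaling factor of each library, which moves the log2 fold changes of all genes nearly alike. The median of all genes moved to -0.42 with library totals and -1.76 with neutrophil genes. The cause of the shifts under the other settings was not tested. Relative to the median of all genes, that of the nuclear subunits was -0.1599 in the main fit, -0.1585 with library totals and -0.1584 with neutrophil genes. Because such scaling shifts the subunits and all genes together, this difference could hardly move, and its steadiness is no check of the result. Leaving out each library gave 15 to 20 lower and 3 to 9 higher, beside 2255 to 2770 lower and 2419 to 2615 higher of all 10440 genes. The replicate block gave 20 and 7, beside 2822 and 2724. The numbers do not pair the libraries (correlations of deviations 0.01 to 0.05), and under the block Uqcrb (-0.51), Uqcrfs1 (-0.40) and Cox7b (-0.48) lost their calls, while mt-Rnr1 (-0.26, edgeR adjusted p = 0.0411) gained one. An alternative chosen after seeing the data, without genes whose exons overlap another expressed gene, gave 20 and 6.

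Relative to all genes tested, which are fewer with the mean of at least 5 FPKM and more with no filter, the medians under these 2 settings were -1.59 and -1.18 for the mt- messengers and -0.352 and 0.0284 for the nuclear subunits. By complex, the nuclear medians were -0.442 and -0.0428 (I), -0.0789 and 0.337 (II), -0.362 and 0.0517 (III), -0.0797 and 0.331 (IV) and -0.397 and 0.0128 (V), and the mt- medians -1.59 and -1.18 (I), -1.61 and -1.20 (III), -1.43 and -1.01 (IV) and -1.56 and -1.14 (V). For the mt- genes of complex I the median was also -1.29 with filterByExpr and -1.45 with limma on log2(FPKM + 1). Leaving out each library gave -1.42 to -1.29 for all mt- messengers, -0.249 to -0.0385 for all nuclear subunits, -0.328 to -0.128 (I), 0.0448 to 0.229 (II), -0.198 to -0.0414 (III), 0.0736 to 0.25 (IV) and -0.244 to -0.0438 (V) for nuclear subunits by complex, and -1.42 to -1.31 for mt- genes of complex I.

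The log2 difference of the mt- to nuclear ratio, -1.29, was -1.41 on sums of FPKM and -1.35 to -1.22 with each library left out, and -1.30 without mt-Nd6 and the overlapping mt- pairs. Of the 55 named genes tested, DESeq2 ended the call of 1, library totals of 7 and no filter of 11. With scaling to neutrophil genes the direction turned for Ndufa8 (-1.22), Ndufb9 (-0.92), Sdhd (-0.81), Sdhb (-1.50), Uqcr10 (-1.54), Uqcrq (-1.42), Cox6b1 (-1.25), Cox8a (-1.24), Atp5pb (-1.33), Atp5l (-1.32), Cox4i1 (-1.53), Cox7a2 (-1.62), Ndufaf7 (-0.87), Etfdh (-1.67), Coa4 (-0.0355), Mterf1a (-1.42), Nfe2l2 (-0.23) and Mdh2 (-1.29). Standard errors cover no error from PCR copies.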
